A study of Mus musculus with 9 samples.

Results

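Angiotensinogen and 3 peptidases that handle angiotensin peptides were followed in AML12 cells, a mouse hepatocyte line, by RNA sequencing of 9 samples in 3 groups of 3. The set was chosen by gene symbol as Agt, Lnpep, Thop1 and Prep, and it makes up 4 of the 10260 gene symbols in the deposited tables. All 4 symbols were listed in each of the 3 tables, with 5 transcripts in all: 1 each for Agt (NM_007428.3), Lnpep (NM_172827.3) and Thop1 (NM_022653.4), and for Prep a curated one (NM_011156.2) and a predicted one (XM_011243142.2). Control cells were untreated. The PA-OA group spent 24 h in a mix of PA at 0.2 mM with OA at 0.4 mM, abbreviations taken to mean palmitic and oleic acid. The Ang(1-7) group was given 100 nM Ang(1-7) 30 min ahead of the same fatty acids, so both treated groups carry the fatty acids. There was no group with Ang(1-7) alone, the labels name no carrier for the controls, and all 3 groups are 1 cell line. The labels do not say that the samples of a group were separate cultures, so p-values cover only how far these samples scatter, and that scatter may be technical.

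Angiotensinogen is the secreted precursor of all angiotensin peptides and is made mainly by hepatocytes. Renin cuts angiotensin I from its N-terminus, the angiotensin-converting enzyme turns angiotensin I into the pressor peptide angiotensin II, and Ang(1-7), which signals through the receptor Mas, is widely held to counter angiotensin II. Thop1 encodes thimet oligopeptidase and Prep encodes prolyl endopeptidase, cytosolic enzymes that can cut Ang(1-7) from angiotensin I, and Prep also from angiotensin II. Lnpep encodes the insulin-regulated aminopeptidase, a membrane enzyme of GLUT4 storage vesicles and of endosomes that binds angiotensin IV and trims peptides.

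The part of Agt that encodes the peptide given to the cells lies in exon 2 of 5, at chr8:124564450-124564479 on the minus strand of GRCm38 (GENCODE M21). The 10 codons of angiotensin I read as follows, with the 7 codons of Ang(1-7) in capitals, followed by the 3 codons of the residues that Thop1 and Prep can cut off:
Agt angiotensin I codons: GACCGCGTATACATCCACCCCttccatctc
The library reads report on this precursor transcript and say nothing of the peptide added to the medium.

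The 4 genes lie on 3 chromosomes (GRCm38, GENCODE M21). Agt spans chr8:124556534-124569706 on the minus strand with 5 exons, and Lnpep spans chr17:17521410-17625050 on the minus strand with 18 exons. Thop1 spans chr10:81070035-81082559 with 13 exons and Prep chr10:45067203-45167198 with 15 exons, both on the plus strand. The 250 bases before the RefSeq start (GRCm38.p6) are shown for the genes with the lowest and the highest level per length, and the capitals mark 3 motifs searched on both strands, the TATA box TATAAA, the CAAT box spelled CCAAT and the GC box spelled GGGCGG:
Agt, chr8:124569707-124569956, minus strand: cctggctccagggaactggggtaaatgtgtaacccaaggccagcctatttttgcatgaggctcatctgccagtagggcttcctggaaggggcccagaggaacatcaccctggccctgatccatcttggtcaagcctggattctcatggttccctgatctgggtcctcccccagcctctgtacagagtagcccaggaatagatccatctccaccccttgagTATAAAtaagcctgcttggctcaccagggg
Thop1, chr10:81069833-81070082, plus strand: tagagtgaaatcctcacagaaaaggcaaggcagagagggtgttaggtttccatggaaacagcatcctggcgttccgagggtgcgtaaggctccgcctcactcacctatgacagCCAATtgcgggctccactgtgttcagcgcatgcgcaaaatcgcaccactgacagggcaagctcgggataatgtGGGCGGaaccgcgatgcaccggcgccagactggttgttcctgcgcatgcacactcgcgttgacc
The Agt window holds a TATAAA 30 to 25 bases before the start and 0 CpG dinucleotides, which 7.87% of the 32851 promoters in the RefSeq table also have. The Thop1 window holds a CCAAT 137 to 133 bases and a GGGCGG 64 to 59 bases before the start, and 17 CpG. The Lnpep window, not printed, holds GGGCGG at 4 places and 25 CpG, against a median of 6 CpG over all promoters. The motif TATAAA occurs in 12.4% of the promoters, the motif CCAAT in 33.8% and the motif GGGCGG in 32.7%. These are matches of letters and not measured sites.

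The listed counts summed to 24588312 to 28704499 per library. Library 2 of the Ang(1-7) group stood apart from the other 8. Its log2 levels correlated with theirs at r of 0.941 to 0.957, against at least 0.977 among those 8. This library and library 3 of that group held transcripts of nervous tissue, which are given beside Agt below. The collagen genes Col1a2 (28 and 30 counts) and Col3a1 (71 and 31) also had reads there, and 0 in the other fatty acid libraries. Col1a1, another collagen gene, had reads in Ang(1-7) 1 as well (36 counts). Among 18 hepatocyte markers, 8 were listed in the tables with controls and 10 in the table of the fatty acid groups. The keratin genes Krt8 and Krt18 made up most of their sum. Alb, the albumin gene, had 80 to 550 counts per library and Hnf4a, a hepatocyte transcription factor, 104 to 251. Apoa2, Cebpa, Serpina1a, Fga, Fgb, Fgg, Cps1 and Asgr1 were not listed, and the cholangiocyte keratins Krt7 and Krt19 were. The tables leave out transcripts of low level, so a gene that is not listed may still have had reads.

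The 4 genes differed widely in level. Levels are given as CPM, the count of a gene relative to the effective size of its library (TMM factors over the 9 libraries), and were divided by transcript length. Thop1 had the highest level in the controls, 124 ± 4.03 CPM per kilobase (SD, n = 3), followed by Lnpep at 15.3 ± 1.29, Prep at 6.52 ± 0.278 and Agt at 1.85 ± 1.29. The annotated transcripts of Lnpep (12052 bases) and Prep (10933 bases) are long, mostly beyond the coding part. Divided by coding length instead, the order was the same, with 170 CPM per kilobase for Thop1, 59.8 for Lnpep, 33.4 for Prep and 2.41 for Agt. The order was also the same in the PA-OA and Ang(1-7) groups on both scales, but per transcript length Prep (5.58 ± 0.494) and Agt (4.59 ± 2.78) did not differ beyond their spread in the Ang(1-7) group.

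**Figure D1:**
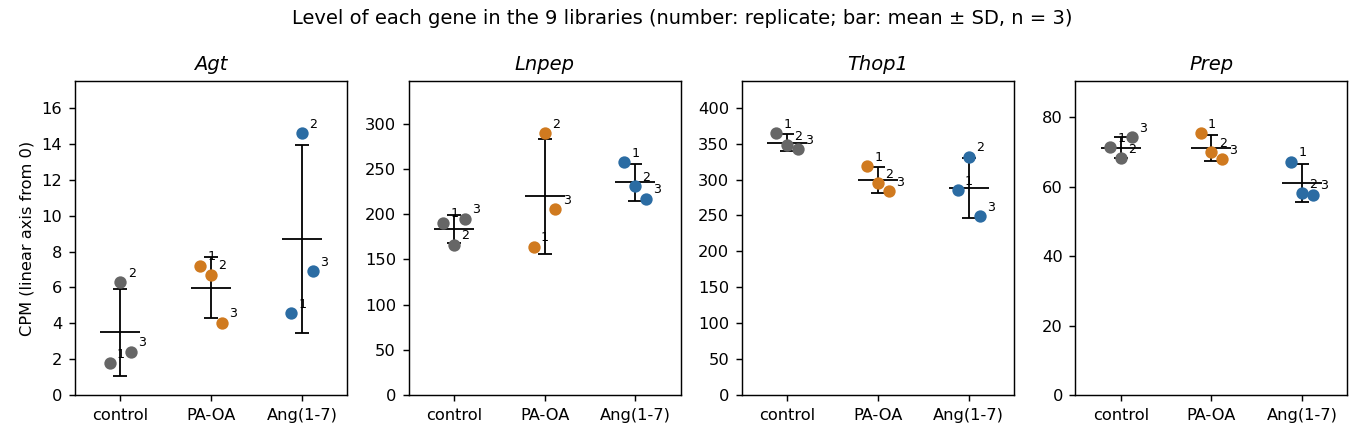
CPM of Agt, Lnpep, Thop1 and Prep in each of the 9 libraries (points, with the replicate number), with the mean and SD of each group of 3. Vertical axes are linear and start at 0. The Agt values of the 3 groups overlap, control 2 lies among the treated libraries and Ang(1-7) 2 is the highest at 14.6 CPM, while the Thop1 controls, at 343 to 364 CPM, lie above every treated library.

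Agt, the precursor, had few reads in these cells. Its counts were 48, 169 and 63 in controls 1 to 3, 186, 172 and 104 in the PA-OA libraries, and 115, 389 and 186 in the Ang(1-7) libraries. As CPM these were 1.77, 6.29 and 2.41 in the controls, 7.20, 6.71 and 4.04 with PA-OA, and 4.56, 14.6 and 6.90 with Ang(1-7). Control 2 lay within the range of the treated groups, so no pair of groups was separated. The exact 95% Poisson intervals of the control counts, 35.4 to 63.6, 144.5 to 196.5 and 48.4 to 80.6, did not all overlap, so the spread between controls was larger than counting error. These intervals cover counting error only, as the reads carry no molecular identifiers and 1 molecule can give several of them.

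The group means of Agt were 3.49 ± 2.44 CPM in the controls, 5.98 ± 1.70 with PA-OA and 8.68 ± 5.25 with Ang(1-7) (SD, n = 3). The coefficient of variation was 70.0%, 28.5% and 60.5%, the highest of the 4 genes in the control and Ang(1-7) groups. PA-OA against control gave a log2 difference of 0.77 ± 0.47 (SE, 95% interval -0.22 to 1.76), with an adjusted p of 0.406 in edgeR. Ang(1-7) against PA-OA gave 0.54 ± 0.45 (-0.48 to 1.57, adjusted p = 0.965 in edgeR), and Ang(1-7) against control 1.29 ± 0.60 (-0.09 to 2.68, adjusted p = 0.360 in edgeR). No Agt difference passed the threshold of 0.05, and the intervals leave room for no change as well as for several-fold higher levels. In bulk samples, fewer cells that express a gene and less of its RNA per cell cannot be told apart.

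Single libraries decided the size of the Agt values. Without control 2 the log2 difference of PA-OA against control was 1.51 (adjusted p = 0.107 in edgeR), and without control 1 it was 0.46. Without Ang(1-7) 2 the difference of Ang(1-7) from PA-OA was -0.048 and that from control 0.71, and without Ang(1-7) 2 and 3 these were -0.39 and 0.38. Astrocytes are known to make angiotensinogen, and nervous tissue transcripts were present in the same 2 libraries. Gfap, an astrocyte filament gene, had 0 counts in each PA-OA library and 12, 888 and 378 in Ang(1-7) 1 to 3. S100b, a glial calcium-binding protein gene, had 0, 1 and 0 counts with PA-OA and 0, 344 and 171 with Ang(1-7). Slc1a2, a glutamate transporter gene, did not follow them, with 18, 23 and 6 counts with PA-OA and 2, 20 and 5 with Ang(1-7). Neither did Aldh1l1, an astrocyte enzyme gene of folate metabolism, with 22, 35 and 0 counts and 8, 17 and 23.

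Of 12 astrocyte markers, 9 were listed in the table of the fatty acid groups, and 4 to 6 of these had counts in a PA-OA library and 6 to 9 in an Ang(1-7) library. Their sum ranged from 98.1 to 139 CPM with PA-OA and from 123 to 152 CPM with Ang(1-7), mostly from Gja1 and Sox9, which are not particular to astrocytes. Of 15 neuron markers, 9 were listed, and their sum was 1.63 to 2.97 CPM with PA-OA and 2.71 to 100 CPM with Ang(1-7). Nefl, a neurofilament gene, was at 0 in each PA-OA library and in Ang(1-7) 1, with 923 and 477 counts in Ang(1-7) 2 and 3. Markers at 0 outside Ang(1-7) 2 and 3, such as Nefl, were listed only through those libraries, since transcripts of low level are left out. Syp and Gap43 had reads in each PA-OA library as well (21 to 37 and 20 to 29 counts). In PA-OA against control 0 of the 15 neuron markers and 2 of the 12 astrocyte markers were listed. The lowest mean count listed there was 56.8, against 5.17 in the table of the fatty acid groups. The sums of listed markers are therefore no test of a difference between the groups. The order of Agt over the 3 Ang(1-7) libraries was that of Gfap, with library 2 highest and library 1 lowest. Alb was also highest in Ang(1-7) 2, at 550 counts. The part of these transcripts in the Agt values was not tested.

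**Figure D2:**
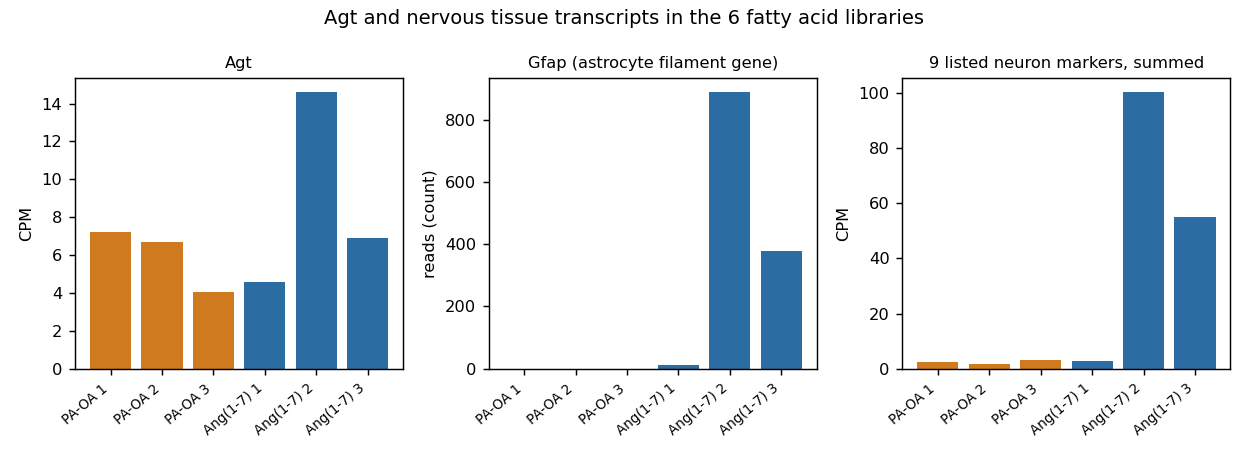
Agt (CPM), Gfap (read count) and the summed CPM of 9 listed neuron markers in the 3 PA-OA and 3 Ang(1-7) libraries. Each panel has 1 bar per library on a linear axis from 0. Neuron markers at 0 outside Ang(1-7) 2 and 3 are listed only through those libraries. Agt is highest in Ang(1-7) 2 (14.6 CPM), where Gfap has 888 counts, and Gfap is at 0 in each PA-OA library, where Agt lies between 4.04 and 7.20 CPM.

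Thop1, the oligopeptidase, was lower in every treated library than in every control. Its counts were 9857, 9346 and 8954 in the controls, 8244, 7552 and 7312 with PA-OA, and 7201, 8839 and 6706 with Ang(1-7). The matching CPM were 364, 348 and 343 in the controls, 319, 295 and 284 with PA-OA, and 285, 332 and 248.7 with Ang(1-7). The control and PA-OA ranges did not overlap, nor did the control and Ang(1-7) ranges, while PA-OA and Ang(1-7) overlapped.

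The mean of Thop1 was 352 ± 11.4 CPM in the controls, 299 ± 18.1 with PA-OA and 289 ± 41.5 with Ang(1-7) (SD, n = 3). PA-OA against control gave a log2 difference of -0.24 ± 0.07 (SE, 95% interval -0.39 to -0.09), a ratio of means of 0.849. The edgeR p was 0.00380 and the adjusted p 0.0626 over 6213 genes, just outside the threshold. DESeq2 called it (adjusted p = 0.0182), as did edgeR without PA-OA 1 (-0.29, adjusted p = 0.0268). It was not called in edgeR with all 9 samples in 1 fit (adjusted p = 0.521) or without any 1 of the other 5 libraries (0.115 to 0.217). The authors' deposited table gives an unadjusted p of 0.000162 for this transcript. Ang(1-7) against control gave -0.30 ± 0.12 (-0.58 to -0.03, adjusted p = 0.298 in edgeR). Without Ang(1-7) 2 it was -0.40 with adjusted p = 0.00348 in edgeR, in a fit that called 624 genes, against 15 with all libraries. Of 15 alternatives only that fit called Thop1. Ang(1-7) against PA-OA gave -0.050 ± 0.13 (-0.35 to 0.25, adjusted p = 0.979 in edgeR), and it turned to 0.0063 without PA-OA 1 and to 0.044 without Ang(1-7) 3. The comparisons with control share the same controls and are not independent of each other.

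Prep, the prolyl endopeptidase, was close to level between control and PA-OA. Its summed counts were 1929, 1833 and 1941 in the controls, 1948, 1795 and 1751 with PA-OA, and 1697, 1550 and 1555 with Ang(1-7). As CPM these were 71.3, 68.2 and 74.3 in the controls, 75.4, 70.0 and 68.0 with PA-OA, and 67.3, 58.2 and 57.7 with Ang(1-7). Each Ang(1-7) library lay below the other 6, and Ang(1-7) 1, at 67.3 CPM, lay close beneath the lowest of them.

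The mean of Prep was 71.3 ± 3.04 CPM in the controls, 71.1 ± 3.84 with PA-OA and 61.0 ± 5.4 with Ang(1-7) (SD, n = 3). PA-OA against control gave a log2 difference of -0.0061 ± 0.11 (SE, 95% interval -0.24 to 0.23, edgeR adjusted p = 0.987), which bounds a change at about that interval and does not show equality. Ang(1-7) against PA-OA gave -0.22 ± 0.14 (-0.54 to 0.10, adjusted p = 0.965 in edgeR). Ang(1-7) against control gave -0.24 ± 0.13 (-0.54 to 0.07, adjusted p = 0.425 in edgeR). Neither passed the threshold. The groups did not overlap in these 2 comparisons, which held for 11% and 26.5% of all genes. Without Ang(1-7) 2 and 3 the differences from PA-OA and from control were -0.079 and -0.091.

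The Prep counts are a sum over the curated and the predicted transcript, which overlap, and how reads were shared between them is not given in the sources used here, so the split is uncertain. The predicted transcript had 184, 255 and 233 counts in the controls, 409, 276 and 314 with PA-OA, and 226, 204 and 295 with Ang(1-7). It took 9.54%, 13.9% and 12% of the Prep counts in the controls, 21%, 15.4% and 17.9% with PA-OA, and 13.3%, 13.2% and 19.0% with Ang(1-7). The PA-OA shares lay above every control share, and the Ang(1-7) shares overlapped both groups.

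The mean share was 11.8% ± 2.19 in the controls, 18.1% ± 2.81 with PA-OA and 15.2% ± 3.31 with Ang(1-7) (SD, n = 3), and this measure was chosen after its values were seen. In a two-sided exact permutation test over samples, PA-OA against control gave p = 0.1, the smallest that 3 against 3 samples allow. Both comparisons of Ang(1-7) gave p = 0.3 in the same exact test. In an edgeR fit per transcript, the predicted transcript differed by 0.62 ± 0.27 on the log2 scale in PA-OA against control (95% interval 0.05 to 1.18, adjusted p = 0.225) and the curated one by -0.12 ± 0.12 (adjusted p = 0.684). Neither was called, in a fit that called 3.89% of 6936 transcripts.

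**Figure D3:**
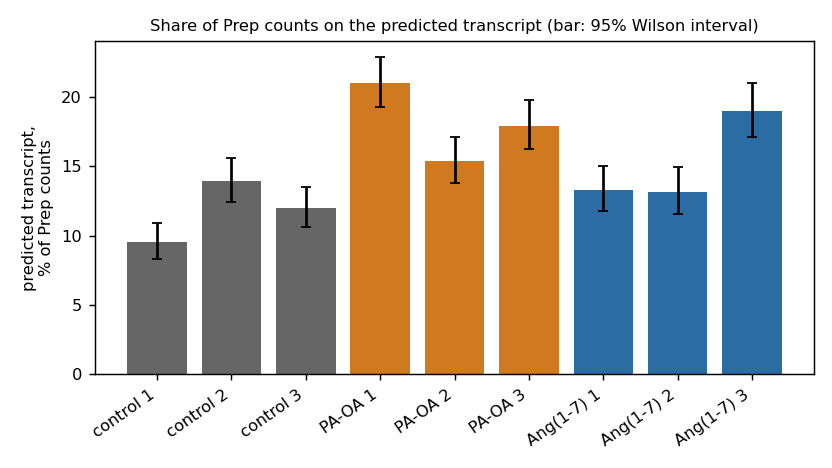
Share of the Prep counts on its predicted transcript in each of the 9 libraries, in percent from 0, with 95% Wilson intervals, which cover counting error only. The controls reach 13.9% and the PA-OA libraries begin at 15.4%, while the Ang(1-7) libraries range from 13.2% to 19.0%.

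Lnpep, the aminopeptidase, had its widest spread in the PA-OA group. Its counts were 5153, 4466 and 5101 in the controls, 4242, 7424 and 5292 with PA-OA, and 6493, 6161 and 5858 with Ang(1-7). The matching CPM were 191, 166 and 195 in the controls, 164, 290 and 205 with PA-OA, and 257, 231 and 217 with Ang(1-7). Each Ang(1-7) library lay above each control, and the PA-OA libraries spanned the range of both other groups.

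The mean of Lnpep was 184 ± 15.6 CPM in the controls, 220 ± 63.9 with PA-OA and 235 ± 20.3 with Ang(1-7) (SD, n = 3). Ang(1-7) against control gave a log2 difference of 0.34 ± 0.12 (SE, 95% interval 0.07 to 0.61), a ratio of means of 1.27. Its edgeR p was 0.0189 and its adjusted p 0.247. It was called in edgeR without Ang(1-7) 2 (0.36, adjusted p = 0.0241), in a fit that called 624 genes, against 15 with all libraries. Without Ang(1-7) 2 and 3, which leaves Ang(1-7) 1 as the only library of its group, it was 0.48. The remaining alternatives did not call it. PA-OA against control gave 0.25 ± 0.14 (-0.03 to 0.54, adjusted p = 0.325 in edgeR). That value rested on PA-OA 2, without which it was 0.0030, and without PA-OA 1 it was 0.42 and called in edgeR (adjusted p = 0.0342). Ang(1-7) against PA-OA gave 0.10 ± 0.19 (-0.33 to 0.53, adjusted p = 0.972 in edgeR), and -0.063 without PA-OA 1.

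**Figure D4:**
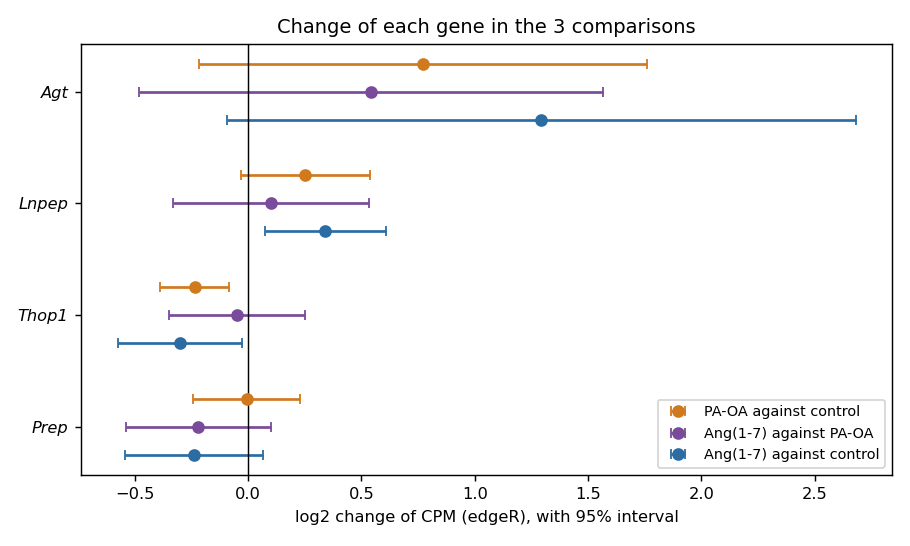
Log2 difference of Agt, Lnpep, Thop1 and Prep (edgeR, points) with its 95% interval (lines) in the 3 comparisons, on a linear axis with 0 marked. The intervals of Thop1 in both comparisons with control and of Lnpep in Ang(1-7) against control leave out 0 before adjustment over all genes, and those of Agt are the widest.

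Over the set, 0 of 4 genes were called by edgeR in any comparison at an adjusted p under 0.05. In PA-OA against control 5.05% of the 6213 genes tested were called, 2.82% as higher and 2.24% as lower, and at an unadjusted p under 0.05 it was 1 of 4 (Thop1) against 19.4% of all genes. In Ang(1-7) against PA-OA edgeR called 0% of 9261 genes, with 2.55% at an unadjusted p under 0.05 (0 of 4 here), and DESeq2 called 5 genes. In Ang(1-7) against control 0.245% of 6134 genes were called, with 2 of 4 (Lnpep and Thop1) at an unadjusted p under 0.05 against 14.9%. The groups did not overlap for 1 of 4 genes in PA-OA against control, where 23.8% of all genes did so. This held for Prep in Ang(1-7) against PA-OA (11% of all genes) and for Lnpep, Thop1 and Prep in Ang(1-7) against control (26.5% of all genes). With 4 genes these shares are a description and nothing in them is particular to the set.

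The rest of the angiotensin pathway was thinly covered. Of 20 other angiotensin-cleaving peptidases, 4 were listed with controls, and Ren1 (renin), Ace and Enpep were listed in no table. None of the 4 was called in PA-OA against control (0 rose, 0 fell, median log2 difference 0.06, against 0.01 over all genes) or in Ang(1-7) against control. Over all genes edgeR called 5.05% and 0.245% in these comparisons. In PA-OA against control Dpp3, a dipeptidyl peptidase that shortens angiotensin peptides, differed by -0.39 ± 0.31 (log2 ± SE, edgeR adjusted p = 0.534). Prcp, a prolyl carboxypeptidase that forms Ang(1-7) from angiotensin II, differed by 0.24 ± 0.26 and Ctsd, the lysosomal protease cathepsin D, by 0.04 ± 0.06.

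The same 3 genes differed from control in the Ang(1-7) group by -0.56 ± 0.30, 0.45 ± 0.31 and -0.12 ± 0.09. In the table of the fatty acid groups 9 of the 20 were listed and 7 tested, again with 0 called, where edgeR called 0% of all genes. The lowest p there belonged to Ctsa, the lysosomal carboxypeptidase cathepsin A (0.38 ± 0.25), Ctsd (-0.15 ± 0.10) and Prcp (0.22 ± 0.23), each with an edgeR adjusted p of 0.965. Mme, the gene of neprilysin, another enzyme that forms Ang(1-7), had 0 to 25 counts per library, and Nln, of neurolysin, the closest relative of Thop1, had 7 to 34.

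Of 11 receptors and their partners, Atp6ap2, which encodes the prorenin receptor, and Igf2r, a receptor that also binds prorenin, were listed with controls. In PA-OA against control they differed by -0.011 ± 0.071 and -0.0063 ± 0.20 on the log2 scale and were not called. Agtr1a, Agtr1b, Agtr2 and Mas1 were listed in no table. Agtrap, an angiotensin II receptor-associated protein gene, was listed only with the fatty acid groups, at 9 to 75 counts per library, and was not called.

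Cytosolic peptidases other than Thop1 and Prep were better covered, with 14 of 22 listed with controls (Dpp3 among them, which is also in the first list). The main edgeR fits called none of them in any comparison, and the median log2 difference in PA-OA against control was -0.01. Over all genes edgeR called 5.05% in that comparison, 0% in Ang(1-7) against PA-OA and 0.245% in Ang(1-7) against control. The lowest p in PA-OA against control was that of Ide, the insulin-degrading enzyme. It had counts of 18219, 20470 and 18499 in the controls, against 21212, 21197 and 21509 with PA-OA, and the groups did not overlap in CPM. Its log2 difference was 0.21 ± 0.06 (edgeR adjusted p = 0.0592, DESeq2 adjusted p = 0.0221, limma-voom adjusted p = 0.0461), about the size of that of Thop1 with the opposite sign. Of 13 alternatives 4 called it, among them edgeR with curated transcripts only (adjusted p = 0.0444) and edgeR without control 2 (adjusted p = 0.0464). With all 9 samples in 1 fit it was not called (adjusted p = 0.729 in edgeR). Pepd, which splits dipeptides that end in proline, differed by -0.31 ± 0.14 (adjusted p = 0.237 in edgeR) and Metap1, a methionine aminopeptidase, by -0.12 ± 0.07 (adjusted p = 0.375 in edgeR). Ide differed in Ang(1-7) against control by 0.54 ± 0.18 and Pepd by -0.34 ± 0.16, with edgeR adjusted p = 0.235 and 0.362. Of 14 alternatives only edgeR without Ang(1-7) 2 called Ide there (0.29, adjusted p = 0.00848). That fit called 624 genes, against 15 with all libraries.

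**Figure D5:**
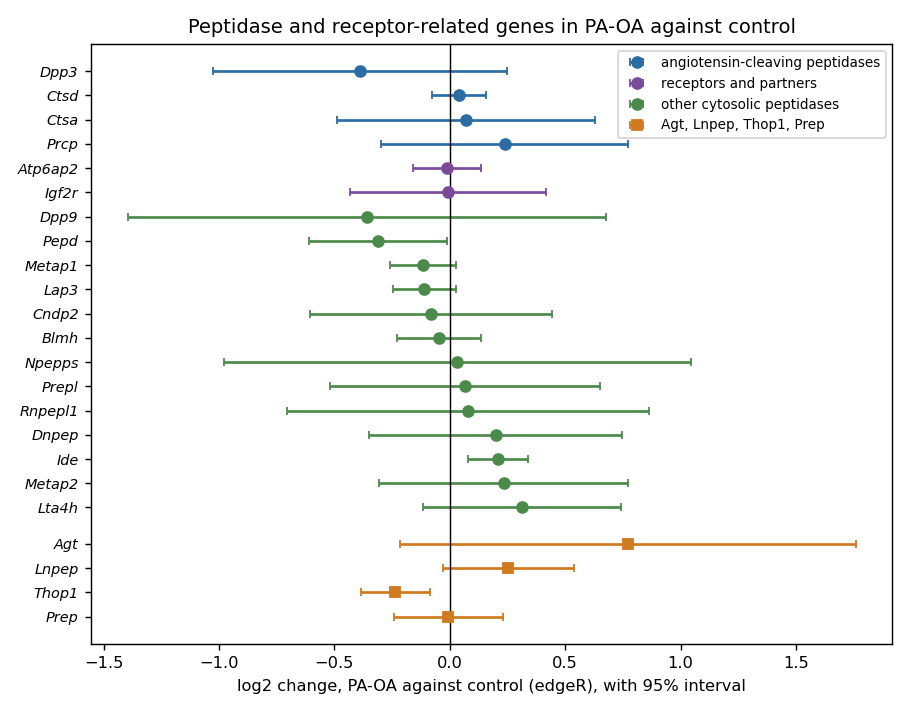
Log2 difference of PA-OA from control (edgeR) with its 95% interval for the listed angiotensin-cleaving peptidases, receptors and partners, and other cytosolic peptidases, with Agt, Lnpep, Thop1 and Prep at the foot. The intervals of Thop1 (-0.39 to -0.09) and Pepd (-0.61 to -0.01) lie below 0 and that of Ide above 0 (0.08 to 0.34). The edgeR fit shown called none of the genes after adjustment, while DESeq2 called Thop1 and Ide (adjusted p = 0.0182 and 0.0221).

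Thop1 and Lnpep also act in the supply of peptides to MHC class I molecules. Of 16 genes of that pathway 9 were listed with controls. In PA-OA against control 1 of these rose, 0 fell and 8 were not called, while 2.82% of all genes rose and 2.24% fell. Their median log2 difference was 0.19, against 0.01 over all genes. The riser was B2m, the light chain of class I molecules, with counts of 11184, 12328 and 10502 in the controls, against 14581, 12186 and 13533 with PA-OA. Its log2 change was 0.29 ± 0.08 (edgeR adjusted p = 0.0286). The call was lost on leaving out control 1 or 3 or PA-OA 1 or 3, with adjusted p of 0.141, 0.123, 0.0883 and 0.0917 in edgeR, and with all 9 samples in 1 fit (adjusted p = 0.768). None of the 9 was called in Ang(1-7) against control, where 0.245% of all genes were.

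Lnpep travels with the glucose transporter GLUT4 in insulin-responsive vesicles. Of 17 partners of these vesicles 10 were listed with controls. In PA-OA against control 1 of them rose, 0 fell and 9 were not called, while 2.82% of all genes rose and 2.24% fell. The median log2 difference was 0.08. Tnks, the gene of tankyrase, which binds the cytosolic tail of the Lnpep product, had counts of 6488, 6767 and 6202 in the controls, against 7802, 9637 and 7261 with PA-OA. It rose by 0.39 ± 0.09 on the log2 scale (edgeR adjusted p = 0.0154). Both Tnks and Lnpep had their highest PA-OA value in library 2, and without that library Tnks differed by 0.26 and was not called (adjusted p = 0.120 in edgeR). The call was also lost without control 1 or control 3 (adjusted p = 0.0997 and 0.0575 in edgeR) and with all 9 samples in 1 fit (0.256). None of the 10 was called in Ang(1-7) against control, where 0.245% of all genes were, with Tnks at 0.43 ± 0.10 (adjusted p = 0.133 in edgeR).

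Agt belongs with the secreted plasma proteins of hepatocytes, of which 10 of 27 were listed with controls. In PA-OA against control 4 of the 10 rose, 1 fell and 5 were not called, while 2.82% of all genes rose and 2.24% fell. Their median log2 difference was 0.63, against 0.01 over all genes. C3, the central complement component, rose by 2.23 ± 0.10 on the log2 scale (edgeR adjusted p = 4.04e-12). Apob, which encodes the main protein of secreted lipoprotein particles, rose by 1.00 ± 0.09 (adjusted p = 5.91e-07 in edgeR), and Hpx, the heme carrier hemopexin, by 0.85 ± 0.10 (adjusted p = 1.24e-05 in edgeR). Trf, the gene of transferrin, rose by 0.41 ± 0.08, and Ttr, the gene of transthyretin, fell by 1.79 ± 0.34 (edgeR adjusted p = 0.00392 and 0.00357). With all 9 samples in 1 fit the calls of Trf and Ttr were lost (adjusted p = 0.359 and 0.254 in edgeR). The Agt difference of 0.77 lay between those of Trf and Hpx, with an SE of 0.47, and it was not called.

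Of the same 10 genes, 3 rose and 0 fell in Ang(1-7) against control, where 0.245% of all genes rose and 0% fell. C3 differed by 2.34 ± 0.12 and was called in every edgeR fit run. Apob rose by 1.07 ± 0.10 (edgeR adjusted p = 0.00560) and Hpx by 0.78 ± 0.11 (adjusted p = 0.0429). The call of Apob was lost without any 1 of the controls (adjusted p 0.0827 to 0.0935 in edgeR), and that of Hpx without any 1 of the controls, without Ang(1-7) 1 and without Ang(1-7) 3 (0.0834 to 0.349). None of 14 tested genes of this list was called in Ang(1-7) against PA-OA, where edgeR called 0% of all genes.

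Of 13 transcription factors known to act on the Agt promoter, 8 were listed with controls. In PA-OA against control 1 of them rose, 0 fell and 7 were not called, while 2.82% of all genes rose and 2.24% fell. The median log2 difference was 0.21. Cebpd, an acute-phase factor of the C/EBP family, was counted 85, 69 and 73 times in the controls and 309, 207 and 152 times with PA-OA. It rose by 1.60 ± 0.38 on the log2 scale (edgeR adjusted p = 0.0168). Leaving out any 1 of controls 1 and 2 or of PA-OA 1 and 2 lost the call, with edgeR adjusted p of 0.0637, 0.0535, 0.0993 and 0.0501, as did 1 fit over all 9 samples (adjusted p = 0.239). None of the 8 was called in Ang(1-7) against control, where 0.245% of all genes were. Cebpd differed there by 0.63 ± 0.49 (adjusted p = 0.549 in edgeR).

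The genes whose log2 CPM ran most like each of the 4 over the libraries are given as a description, over 5797 genes. The libraries share their groups, and 1 of them stood apart, so the measure is given with and without it. The closest to Agt was Foxm1 (Pearson r = 0.972 over 9 libraries), with Kdsr (0.95) among the first 3, and without Ang(1-7) 2 Foxm1 (0.969) was first again over 8 libraries. The closest to Thop1 was Lap3, a cytosolic leucine aminopeptidase (r = 0.977), followed by Pagr1a (0.967) and Cdk1 (0.963), whereas without Ang(1-7) 2 it was Chchd2 (0.995). Arhgdia was closest to Prep over 9 libraries (0.963) and over 8 (0.962). Lnpep ran closest to Sos1 (0.951) over 9 libraries and to Prr11 (0.959) over 8, and Pcdhb19 was among the first 3 both times. Among the 4 genes themselves, Thop1 and Prep had r = 0.483 over 9 libraries and 0.769 over 8, and Agt had r = -0.306 with Thop1, -0.594 with Prep and 0.215 with Lnpep over 9.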

How the data were processed

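Per the labels' protocols, Qiazol and the miRNeasy kit were used to prepare RNA from 9 samples. Raw counts per RefSeq transcript were deposited as 3 tables, each holding the 6 samples of 2 groups. The submitters' processing notes name HTSeq 0.11.2, HISAT2 2.2.5 and bcl2fastq. The notes name a human genome build although the transcripts are mouse, so coordinates here come from GENCODE and RefSeq and not from the files, and no source used here gives the counting options. For each transcript the deposited tables add a log2 ratio and a p-value without adjustment, and the headers name no test. The tables listed 6936, 14553 and 6828 transcripts, with lowest mean counts of 56.8, 5.17 and 59.5, and 6674 were in all 3. The 61311 counts that occur in several tables did not differ between them.

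Counts were summed per gene symbol and tested within each table with edgeR 4.0.16 in R 4.3.3 (TMM, filterByExpr, quasi-likelihood F test, Benjamini-Hochberg over all genes, threshold 0.05). Standard errors are the log2 change divided by the root of F. CPM were computed over the transcripts that all tables list, and summed markers from the table named. DESeq2 1.42.0, limma 3.58.1 (voom), other transcript choices, a replicate block, 1 fit over 9 samples and leaving out libraries were alternatives. The fits were checked on simulated counts. Likeness used log2(CPM + 0.1) and genes whose mean count reached 50.

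The genes named were the 4 members and their transcripts, the 3 genes most like each, and, per list, those called or otherwise up to 3 of lowest p. Some genes that rule named are not shown. Values for Agtrap, Mme and Nln, and those of B2m, Tnks and Cebpd beyond the comparison that called them, were added after they were seen. The members and lists were chosen with earlier results of these data known. No protein sequence and no Prep promoter were used here.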

Additional observations from a re-analysis of the deposited data

How the results depend on the processing

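Of 178 alternative values for the 4 genes, 162 kept their direction and side of the threshold, 6 became called and 10 changed sign. The 4 genes were called in no main fit, so keeping the side meant staying uncalled. The fit without a filter repeated the main one in PA-OA against control. Agt, Lnpep and Thop1 each have 1 transcript, so transcript choices left their counts as they were. The tally is therefore no measure of robustness. The number of genes called in PA-OA against control was 314, and 533 in DESeq2, 33 with all 9 samples in 1 fit and 99 to 397 on leaving out 1 library. In Ang(1-7) against PA-OA it was 0, and 5 in DESeq2 and 0 to 18 on leaving out 1 library (18 without Ang(1-7) 1). In Ang(1-7) against control it was 15, and 259 in DESeq2, 27 with curated transcripts only, 100 with all 9 samples in 1 fit, 229 without both Ang(1-7) 2 and 3, and 4 to 624 on leaving out 1 library (4 without any 1 of the controls, 624 without Ang(1-7) 2).

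In PA-OA against control Thop1 was called in DESeq2 (-0.24, adjusted p = 0.0182) and ranged from -0.29 to -0.20 on leaving out 1 library, Lnpep from 0.0030 to 0.42, Agt from 0.46 to 1.51 and Prep from -0.057 to 0.025 (0.025 without control 3 as without PA-OA 3, and 0.0047 without PA-OA 2). The predicted Prep transcript on its own gave 0.62 there and 0.11 in Ang(1-7) against control. In Ang(1-7) against PA-OA Agt ranged from -0.048 to 0.85 and was -0.39 without both Ang(1-7) 2 and 3, Lnpep ranged from -0.063 to 0.34 and Thop1 from -0.15 to 0.044 (0.0063 without PA-OA 1). In Ang(1-7) against control Lnpep ranged from 0.26 to 0.39 and was 0.48 without both Ang(1-7) 2 and 3, and Thop1 ranged from -0.40 to -0.21. Agt has no DESeq2 adjusted p in that comparison, where the tool gives none. Among the list genes in PA-OA against control, leaving out 1 library turned the sign of Igf2r (-0.11 to 0.11), Prcp (-0.028 to 0.41), Atp6ap2 (-0.055 to 0.033) and Ctsd (-0.015 to 0.071). The cause of these changes was not tested.

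This check does not settle whether the replicate numbers pair the samples. Same-numbered samples had correlations of deviations of 0.01, 0.03 and 0.01 in PA-OA against control. Each correlated best with its own number there, a hint only. The values were -0.12, -0.08 and 0.00 in Ang(1-7) against PA-OA, and 0.06, 0.02 and -0.03 in Ang(1-7) against control. With the replicate block 303, 0 and 10 genes were called, no call of the 4 genes changed, and Hpx in Ang(1-7) against control was not called (adjusted p = 0.144).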
